A study of Mus musculus with 35 samples.

Results

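Messenger RNA of the death-associated protein kinases Dapk1, Dapk2 and Dapk3 and of the growth arrest-specific gene Gas7 was followed in sorted mouse CD8 T cells. These 4 genes, of 52636 in the count table, were chosen by symbol, with their levels in KO libraries already known from an earlier examination of the same data, so their differences between KO and other libraries are given as a description and carry no p-value. The mice were of strain C57BL/6 and had the genotype Lcre+/-;Dot1Lwt/wt (WT), Lcre+/-;Dot1Lfl/wt (Het) or Lcre+/-;Dot1Lfl/fl (KO), so that every group, controls included, carried the Cre transgene, whose promoter the labels do not spell out. From each genotype 3 subsets were sorted: thymic CD8 single positive cells, and from the spleen naive CD44- CD62L+ and memory CD44+ CD62L+ cells. The 35 libraries formed 9 groups of 4, except WT thymus with 3. The ages of the mice are not given. Whether replicates are different mice is not stated either. By Xist and Y-linked transcripts every group held libraries of both sexes, so none came from a single mouse. Libraries of the same sex may still share a mouse. A p-value here measures the spread between samples, part of which may be technical.

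The death-associated protein kinases are serine/threonine kinases that phosphorylate myosin light chain and other substrates and are known for roles in apoptosis, autophagy and membrane blebbing. Dapk1 is a large protein with ankyrin repeats and a death domain, and Dapk2 is a short one. Both are held inactive until calcium-loaded calmodulin binds them, whereas Dapk3, also called ZIP kinase, lacks the calmodulin-binding segment and carries a leucine zipper. Gas7 belongs to another family: it is an F-BAR protein that binds membranes and actin and is best known for its part in the outgrowth of neurites. Dot1l, the gene floxed in these mice, encodes a methyltransferase that modifies a lysine in the core of histone H3, a mark found over transcribed genes.

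Levels are given as CPM, read counts scaled to a common effective library size. Library totals lay between 4809509 and 16879636 counts (median 10406516), so a gene below 1 CPM rests on few reads. Dot1l counts did not fall with the KO label: the mean was 67.0 CPM in WT and 77.3 CPM in KO thymus, 49.5 and 55.7 CPM in naive, and 45.4 and 45.8 CPM in memory cells. A count over the whole gene need not register the loss of a floxed part, and the labels do not say which part is floxed. The 7 CD8 T cell markers summed to between 1049 and 1470 CPM in every library, most of it from Lck and Cd3e (medians of 9745 and 2217 counts). Cd8a and Cd8b1 had medians of only 95 and 54 counts, so the sum says little about Cd8a and Cd8b1 themselves. Cd4 had at most 2 counts in any library.

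The promoters of Dapk1 and Dapk2, the 2 kinase genes with the widest range of levels, are shown to place the genes among mouse promoters. Each window, from RefSeq on GRCm38.p6, runs from 250 bases before to 50 bases after an annotated start and is written 5′ to 3′ on the plus strand, with CG dinucleotides in capitals. The Dapk1 window is chr13:60601961-60602260 and the Dapk2 window chr9:66157976-66158275.
Dapk1: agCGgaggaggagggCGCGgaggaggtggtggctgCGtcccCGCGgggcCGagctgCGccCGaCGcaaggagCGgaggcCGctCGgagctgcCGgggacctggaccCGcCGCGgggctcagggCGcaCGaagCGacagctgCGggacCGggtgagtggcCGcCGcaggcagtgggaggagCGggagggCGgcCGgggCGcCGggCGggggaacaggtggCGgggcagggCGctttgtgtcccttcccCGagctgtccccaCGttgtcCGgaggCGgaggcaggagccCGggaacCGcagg
Dapk2: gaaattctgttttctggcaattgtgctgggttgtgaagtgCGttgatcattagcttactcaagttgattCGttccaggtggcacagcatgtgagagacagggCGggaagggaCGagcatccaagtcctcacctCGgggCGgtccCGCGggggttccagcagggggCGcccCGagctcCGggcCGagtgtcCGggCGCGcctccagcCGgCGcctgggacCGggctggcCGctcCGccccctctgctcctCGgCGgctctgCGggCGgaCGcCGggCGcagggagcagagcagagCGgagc
The Dapk1 window held 38 CG dinucleotides and 77.7% G or C, and 95.0% of 32851 windows of the same length held fewer CG. The Dapk2 window held 28 CG at 67.7% G or C, more than 85.8% of windows. Over all windows the medians were 7 CG and 52.7% G or C. The windows at 3 Dapk3 starts held 20, 26 and 6 CG. A set of 4 short motifs was searched on both strands: CACGTG (an E-box, in 7.15% of all windows), TCACACC (a T-box element, in 3.98%), TGTGGT (a Runx site, in 16.8%) and CTTTGA (a TCF/LEF site, in 16.0%). None of these letters stood in the Dapk1, Dapk2 or Dapk3 windows.

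Dapk1 (ENSMUSG00000021559, chr13:60601947-60763191, plus strand, GRCm38) was the member that was highest in thymus and lowest in memory cells. It stood at 12.4, 14.9 and 10 CPM in the WT thymus libraries, 13.4, 13.7, 16.1 and 12.4 CPM in Het and 21.9, 21.8, 20.0 and 23.0 CPM in KO. In naive cells it was at 6.28, 5.24, 7.10 and 5.44 CPM in WT, 6.19, 6.83, 8.98 and 8.01 CPM in Het and 16.5, 20.0, 18.5 and 20.7 CPM in KO. In memory cells it was at 1.17, 0.554, 0.768 and 1.26 CPM in WT, 2.85, 3.84, 2.22 and 0.522 CPM in Het and 12.6, 14.2, 11.3 and 18.8 CPM in KO. In each subset the lowest KO library therefore stood above the highest WT library and above the highest Het library, while WT and Het libraries overlapped. Because these are bulk samples, fewer cells that express a gene and less RNA per cell cannot be told apart.

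**Figure D1:**
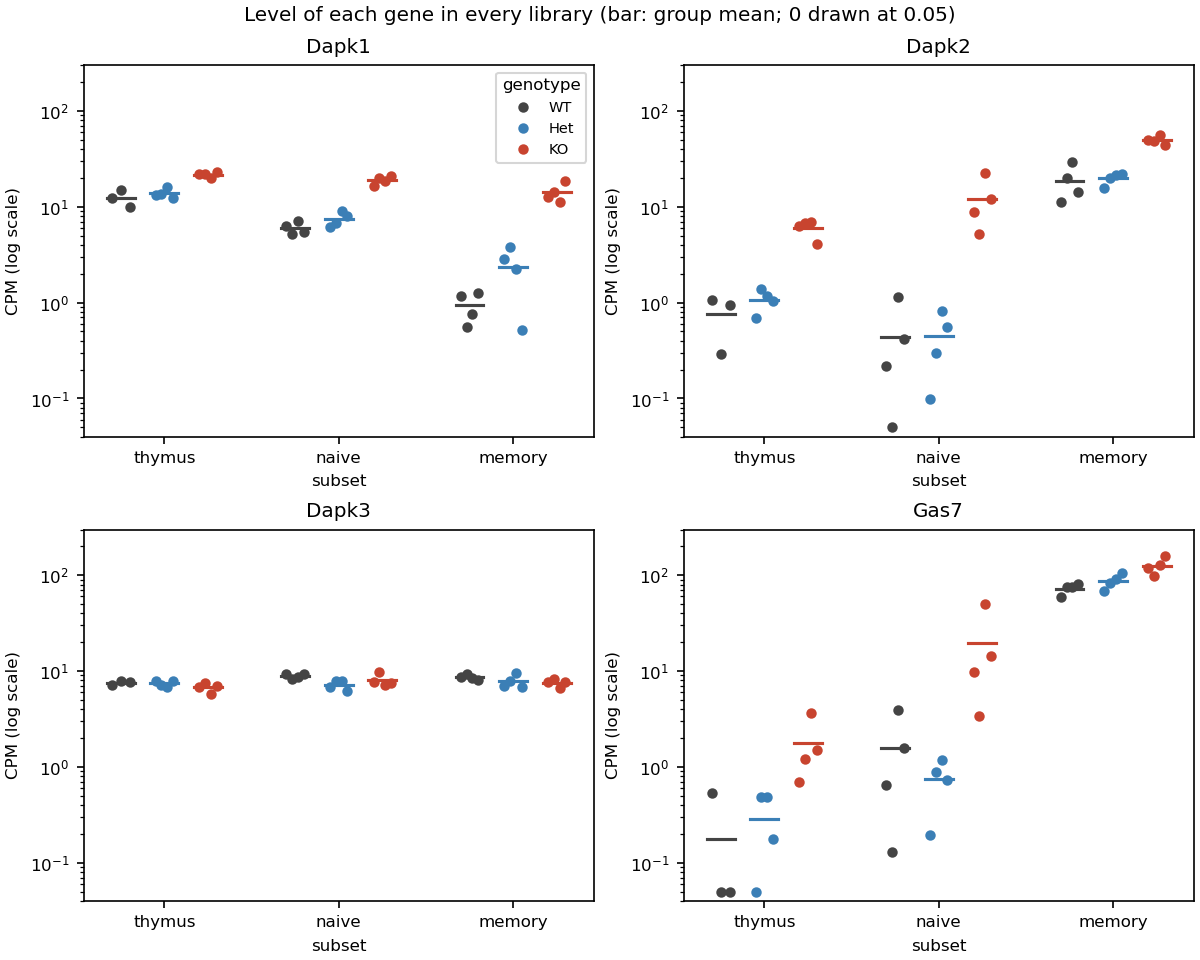
Level of each gene in every library, in CPM on a log scale, by subset (thymus, naive, memory) and genotype (colours). Points are libraries, bars are group means, and libraries with no count are drawn at 0.05. Dapk1 steps down from thymus to memory in WT and Het but stays between 11.3 and 23.0 CPM in KO libraries, Dapk2 and Gas7 step up in memory cells, and Dapk3 stays between 5.70 and 9.75 CPM throughout.

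The distance of KO from WT in Dapk1 was least in thymus and greatest in memory cells. In KO against WT libraries the log2 fold change was 0.79 ± 0.20 (SE) for thymus, a 1.73-fold higher level, 1.65 ± 0.20 in naive cells, 3.14-fold, and 3.86 ± 0.26 in memory cells, 14.5-fold. Against Het, which shares the KO libraries with the comparison above, it was 0.64 ± 0.18, 1.34 ± 0.19 and 2.62 ± 0.24 in the same order. Group means in order were 21.7 ± 1.24 CPM (SD, n = 4) in KO thymus, 18.9 ± 1.89 (n = 4) in KO naive, 14.2 ± 3.23 (n = 4) in KO memory, 13.9 ± 1.59 (n = 4) in Het thymus and 12.4 ± 2.47 (n = 3) in WT thymus, and each of these groups overlapped the next. Below them came Het naive at 7.50 ± 1.24 CPM and WT naive at 6.01 ± 0.852, which overlapped each other, and then Het memory at 2.36 ± 1.39 and WT memory at 0.936 ± 0.331, which also overlapped (n = 4 each). The highest group mean was 23.2 times the lowest.

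Dapk2 (ENSMUSG00000032380, chr9:66158223-66272242, plus strand) was, unlike Dapk1, highest in memory cells of every genotype. In thymus it was at 1.07, 0.291 and 0.949 CPM in WT, 0.694, 1.39, 1.17 and 1.05 CPM in Het and 6.33, 6.74, 6.93 and 4.07 CPM in KO. In naive cells WT libraries held 0.217, 0, 1.14 and 0.419 CPM, Het libraries 0.0983, 0.297, 0.827 and 0.552 CPM and KO libraries 8.78, 5.15, 22.8 and 11.9 CPM. In memory cells it was at 11.3, 20.0, 29.2 and 14.4 CPM in WT, 15.6, 20.2, 21.3 and 21.9 CPM in Het and 49.2, 48.2, 56.1 and 43.7 CPM in KO. Every KO library was above every WT and every Het library of its subset, and WT and Het overlapped in all 3. The count of 0 in WT naive replicate 2 allows a level of up to 0.381 CPM, counting error only.

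For Dapk2 the distance of KO from WT was greatest on the log2 scale in naive cells, where WT was lowest. It came to 3.13 ± 0.57 in thymus (8.76-fold), 4.52 ± 0.55 in naive cells (22.9-fold) and 1.41 ± 0.30 in memory cells (2.66-fold). Without WT naive replicate 3, the WT naive library with the highest level, the naive value was 5.66. Against Het, with the same KO libraries, the log2 fold changes were 2.44 ± 0.47, 4.78 ± 0.54 and 1.33 ± 0.30. The means ran from 49.3 ± 5.13 CPM in KO memory, above all other groups, through Het memory at 19.7 ± 2.88, WT memory at 18.7 ± 7.86 and KO naive at 12.2 ± 7.61, each overlapping the next, to KO thymus at 6.02 ± 1.33 (SD, n = 4 each). KO thymus overlapped KO naive and stood above the 4 lowest groups, Het thymus at 1.07 ± 0.290 (n = 4), WT thymus at 0.768 ± 0.418 (n = 3), Het naive at 0.444 ± 0.316 (n = 4) and WT naive at 0.443 ± 0.493 (n = 4), neighbours that overlapped.

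Dapk3 (ENSMUSG00000034974, chr10:81183005-81193197, plus strand) differed little between any groups. Its level lay between 5.70 and 9.75 CPM in all 35 libraries, and group means ran from 6.76 ± 0.762 CPM in KO thymus to 8.85 ± 0.559 CPM in WT naive cells (SD, n = 4 each), a 1.31-fold span in which every group overlapped the next in order. KO libraries overlapped WT libraries in each subset, with a log2 fold change of -0.18 ± 0.14 for thymus, -0.15 ± 0.14 for naive and -0.19 ± 0.13 for memory cells. Centring libraries on the mean log level of all genes, in place of TMM scaling, moved the median log2 fold change of all genes in KO against WT by -0.10 in thymus and -0.11 in naive and memory cells, and Dapk3 then stood at -0.28, -0.26 and -0.31 where the median of all genes was -0.09, -0.11 and -0.10. Dapk3 lies 388 kb beyond the end of Dot1l on the same chromosome. A gene on the opposite strand that overlaps it, 4930442H23Rik, had 3 counts in all libraries together.

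Gas7 (ENSMUSG00000033066, chr11:67455437-67688990, plus strand) was a memory gene in all 3 genotypes. In memory cells it stood at 59.0, 75.8, 74.7 and 80.5 CPM in WT, 68.1, 83.6, 91.1 and 104 CPM in Het and 118, 98.2, 129 and 158 CPM in KO, where every KO library was above every WT library and 1 of them fell below the highest Het library. In naive cells it was at 0.650, 0.128, 3.88 and 1.57 CPM in WT, 0.197, 0.891, 1.18 and 0.736 CPM in Het and 9.79, 3.40, 50.4 and 14.5 CPM in KO. The lowest KO naive library was below the highest WT naive library and above every Het one. In thymus it was at 0.533, 0 and 0 CPM in WT, 0, 0.486, 0.486 and 0.175 CPM in Het and 0.689, 1.20, 3.64 and 1.52 CPM in KO, with each KO library above each WT and Het library. The counts of 0 allow up to 0.185 CPM in WT thymus replicate 2, 0.262 CPM in WT thymus replicate 3 and 0.303 CPM in Het thymus replicate 1. The genes on the opposite strand that overlap it, Gm12301 and Glp2r, had 1 and 2 counts in all.

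The log2 fold change of KO against WT for Gas7 was 0.79 ± 0.40 in memory cells, a 1.73-fold higher level, 3.41 ± 0.65 in naive cells, 10.6-fold, and 3.98 ± 1.62 in thymus, where it rests on 4 counts in all WT libraries together. The thymus value was 3.12 without WT thymus replicate 2, 3.30 without KO thymus replicate 3 and 7.38 without WT thymus replicate 1; that last value has no WT count behind it and depends on the fit's prior. The naive value was 2.39 without KO naive replicate 3 and 4.46 without WT naive replicate 3. Against Het, with the same KO libraries, the values were 2.63 ± 1.20 for thymus, 4.69 ± 0.73 for naive and 0.53 ± 0.40 for memory cells; without KO thymus replicate 3 the thymus value was 1.95, and without KO naive replicate 3 the naive value was 3.67. The order of group means was KO memory at 126 ± 24.7 CPM, Het memory at 86.8 ± 15.1 and WT memory at 72.5 ± 9.37, which overlapped in turn and stood above the rest, then KO naive at 19.5 ± 21.1, KO thymus at 1.76 ± 1.30, WT naive at 1.56 ± 1.66, Het naive at 0.752 ± 0.414, Het thymus at 0.287 ± 0.241 (SD, n = 4 each) and WT thymus at 0.178 ± 0.307 (n = 3), in which each overlapped the next.

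Counted over the members, every KO library exceeded every WT library for 3 of 4 genes in thymus (Dapk1, Dapk2 and Gas7), for 2 of 4 in naive cells (Dapk1 and Dapk2) and for 3 of 4 in memory cells (Dapk1, Dapk2 and Gas7). By the same criterion, every KO library was above every WT library for 17.3%, 11.9% and 14% of all 10296 genes tested in thymus, naive and memory cells. On these genes edgeR's quasi-likelihood test at an adjusted p under 0.05 called 11.9% higher and 6.77% lower in KO thymus, 11.1% higher and 7.11% lower in KO naive cells, and 12.8% higher and 9.32% lower in KO memory cells. Since the members were selected on KO libraries, nothing is read from their count. All 4 passed the filter on low counts, Dapk2 and Gas7 by way of the groups in which they are high.

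**Figure D2:**
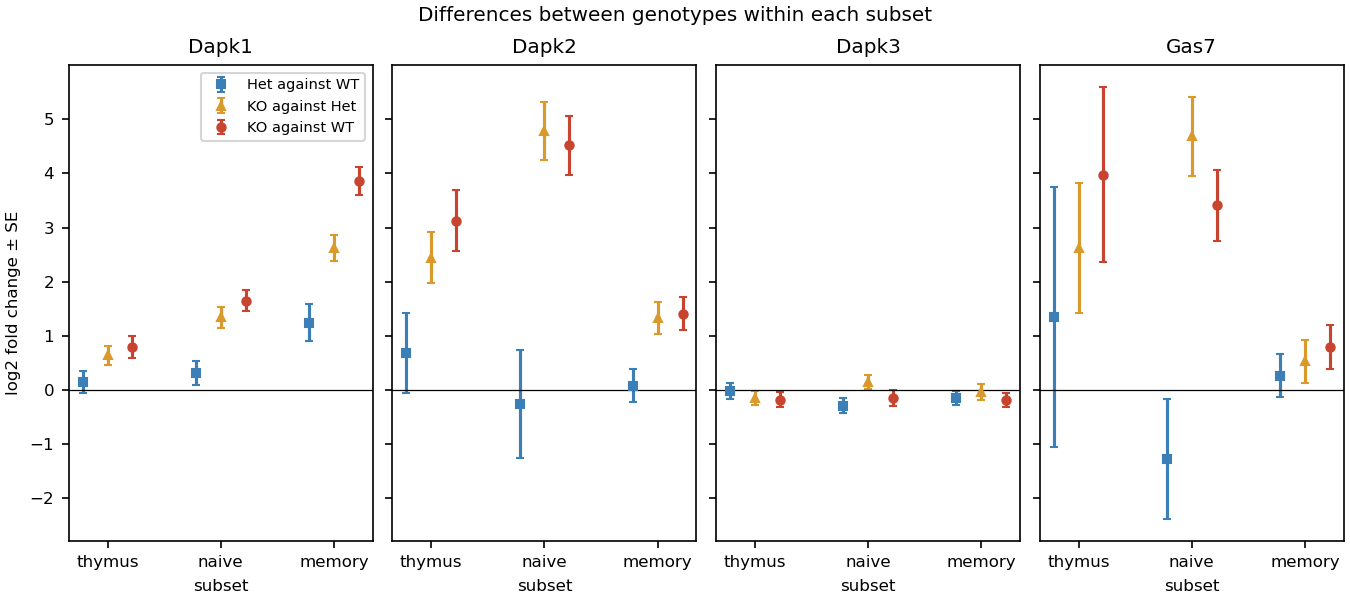
Log2 fold change ± SE between genotypes within each subset, for Het against WT (squares), KO against Het (triangles) and KO against WT (circles). The KO against WT value of Dapk1 goes from 0.79 in thymus to 3.86 in memory cells, Dapk2 and Gas7 have their lowest KO against WT values in memory cells, and Dapk3 stays near 0.

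Mice with 1 floxed copy of Dot1l were tested against WT mice, a comparison that did not choose the members. No member was called in any subset, against a background of 0% of genes called in thymus, 0% in naive cells and 0.00971% (1 gene, the phospholipid flippase gene Atp8a2, 0.86 ± 0.16, adjusted p = 0.0486) in memory cells by edgeR. At an unadjusted edgeR p under 0.05 there were 636, 275 and 527 genes in thymus, naive and memory cells, or 6.18%, 2.67% and 5.12% of those tested. DESeq2 called 0, 0 and 2. The nearest to a call among the members was Dapk1 in memory cells, at 1.24 ± 0.34 (2.37-fold higher, edgeR adjusted p = 0.581). Here 3 of 4 Het memory libraries were above every WT memory library, and the other one, replicate 4 at 0.522 CPM, was below all of them. Without Het memory replicate 4 the log2 fold change was 1.60 and the adjusted p 0.0126, so that 1 library decides this call. In thymus and naive cells the Dapk1 values were 0.15 ± 0.20 (adjusted p = 0.929) and 0.31 ± 0.22 (adjusted p = 1).

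For Dapk2 the log2 fold change of Het against WT was 0.69 ± 0.74 in thymus (edgeR adjusted p = 0.915), -0.26 ± 0.99 in naive cells (adjusted p = 1) and 0.08 ± 0.31 in memory cells (adjusted p = 1). For Gas7 it was 1.35 ± 2.40 in thymus (edgeR adjusted p = 0.953), -1.28 ± 1.11 in naive cells (adjusted p = 1) and 0.26 ± 0.40 in memory cells (adjusted p = 1). Single libraries moved these values: Gas7 in thymus was 4.75 without WT thymus replicate 1 and 0.49 without WT thymus replicate 2, Gas7 in naive cells was -0.23 without WT naive replicate 3, Dapk2 in thymus was 0.14 without WT thymus replicate 2, and Dapk2 in naive cells was 0.88 without WT naive replicate 3. Counts behind the thymus and naive values were few, 14 for Gas7 in Het thymus and 17 each for Dapk2 in WT and Het naive cells. Differences of several standard errors can go uncalled in this comparison, as did Dapk1 in memory cells at 1.24 ± 0.34 (edgeR adjusted p = 0.581). Dapk3 was lower in every Het naive library than in every WT naive library, by -0.29 ± 0.14 (edgeR adjusted p = 1), and was at -0.02 ± 0.14 in thymus and -0.15 ± 0.13 in memory cells.

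Between memory and naive cells, Dapk1 fell while Dapk2 and Gas7 rose, in WT and in Het libraries alike, each by the edgeR test over all genes. In WT, Dapk1 changed by -2.65 ± 0.29 (6.27-fold lower, adjusted p = 3.77e-09), Dapk2 by 5.14 ± 0.53 (35.2-fold higher, adjusted p = 2.17e-08) and Gas7 by 5.32 ± 0.61 (40-fold higher, adjusted p = 1.62e-07). Of all genes 15.1% were called in either direction. Dapk2 and Gas7 entered the test through the groups in which they are high, memory cells among them, so the number of members called is not set against that share. Without WT naive replicate 3 the Dapk2 and Gas7 values were 6.28 and 6.38 and stayed called. In Het, Dapk1 changed by -1.72 ± 0.25 (3.29-fold lower, edgeR adjusted p = 1.29e-06), Dapk2 by 5.48 ± 0.52 (44.6-fold higher, adjusted p = 4.03e-09) and Gas7 by 6.86 ± 0.67 (116-fold higher, adjusted p = 8.24e-09) in a comparison that called 16.9% of all genes. In all 6 of these comparisons the libraries of the 2 subsets did not overlap. Dapk3 was at -0.04 ± 0.13 in WT (edgeR adjusted p = 0.918) and 0.11 ± 0.14 in Het (adjusted p = 0.68).

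From thymus to naive spleen cells only Dapk1 passed the test among the members. It fell by 1.05 ± 0.22 on the log2 scale in WT (2.08-fold lower, edgeR adjusted p = 0.00021) and by 0.89 ± 0.20 in Het (1.86-fold lower, adjusted p = 0.000313), in each case with all naive libraries below all thymus libraries. Of all genes 32.2% were called in WT and 39.5% in Het. Gas7 was at 3.88 ± 1.71 in WT (edgeR adjusted p = 0.0855) and 1.25 ± 1.52 in Het (adjusted p = 0.56). DESeq2 put the WT value at 3.54 with an adjusted p of 0.00311, and without WT thymus replicate 1, the only WT thymus library with Gas7 counts, edgeR put it at 7.28. Other single libraries moved it to 3.02 (without WT thymus replicate 2) and 2.81 (without WT naive replicate 3). Dapk2 was at -0.38 ± 0.93 in WT (edgeR adjusted p = 0.802) and -1.33 ± 0.78 in Het (adjusted p = 0.192), the latter called by DESeq2 at -1.35 with an adjusted p of 0.041. The WT value of Dapk2 was -1.54 without WT naive replicate 3. Dapk3 was at 0.22 ± 0.15 in WT (edgeR adjusted p = 0.276) and -0.05 ± 0.13 in Het (adjusted p = 0.794).

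**Figure D3:**
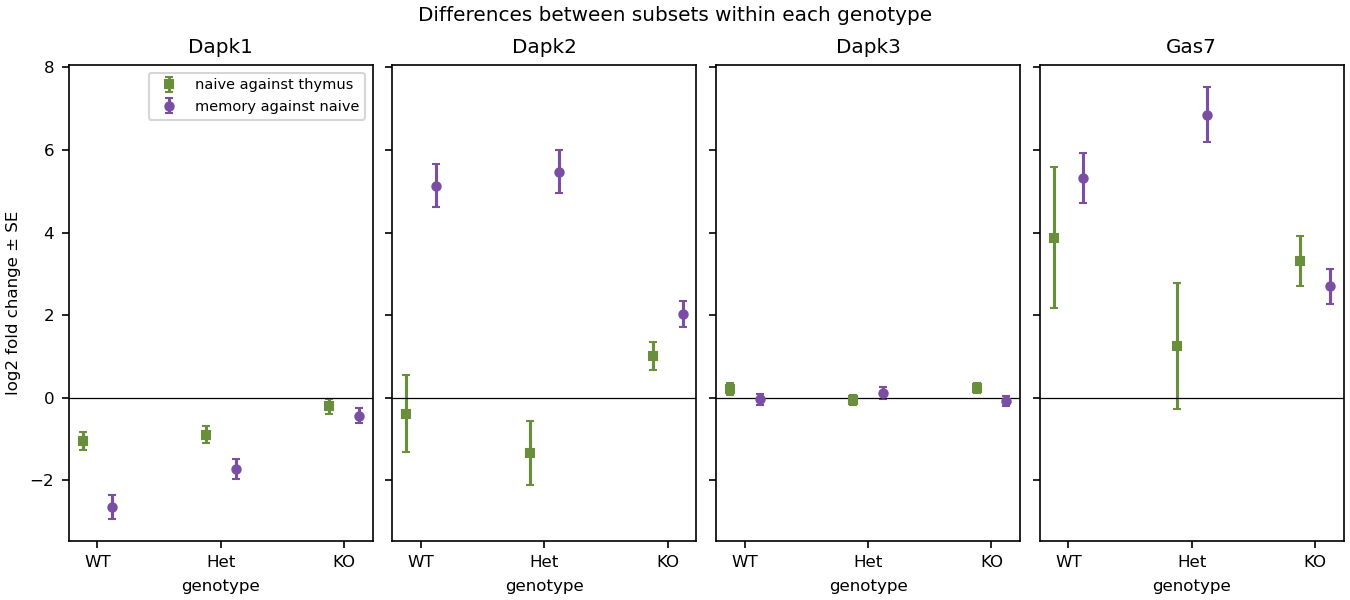
Log2 fold change ± SE between subsets within each genotype, for naive against thymus (squares) and memory against naive (circles). In KO libraries the memory against naive values of Dapk1 (-0.43), Dapk2 (2.03) and Gas7 (2.70) lie nearer to 0 than those in WT and Het.

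Whether the step between subsets differed between Het and WT was tested with an interaction term, and no gene was called for either step. For memory against naive cells, Het minus WT was 0.93 ± 0.40 for Dapk1 (edgeR adjusted p = 1), and among the 4 members and both steps the lowest adjusted p was 0.986. In KO libraries the steps are given without a test. Memory against naive was -0.43 ± 0.18 for Dapk1, with overlapping libraries, 2.03 ± 0.31 for Dapk2, 2.70 ± 0.43 for Gas7 and -0.08 ± 0.13 for Dapk3. Without KO naive replicate 3 the Gas7 value was 3.73 and the Dapk2 value 2.50. Naive against thymus in KO was -0.20 ± 0.18 for Dapk1, 1.01 ± 0.34 for Dapk2, 3.31 ± 0.60 for Gas7 and 0.24 ± 0.13 for Dapk3, each with overlapping libraries, and Gas7 was at 2.29 without KO naive replicate 3 and 4.0 without KO thymus replicate 3.

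The naive libraries differed in the summed level of other memory genes, which is set here beside Dapk1, Dapk2 and Gas7. The sum was taken over 46 genes, chosen after their values were seen, that were called in WT memory against naive cells with a log2 fold change over 3, the members left out. In WT naive libraries it was 39.6, 37.6, 123 and 56.3 CPM, in Het 45.7, 52.4, 79.9 and 69.6 CPM and in KO 427, 315, 1090 and 457 CPM. WT naive replicate 3 and KO naive replicate 3, the highest of their groups in this sum, were also the highest of their groups in Dapk2 and in Gas7, and WT naive replicate 3 was the highest of its group in Dapk1. Across all libraries of the WT naive group, and of the KO naive group, Dapk2 and Gas7 had the same order as the sum, whereas Dapk1 did not. In Het naive libraries Dapk1 and Dapk2 had the same order as the sum, and Gas7 was highest in the library with the highest sum. Cd44, the surface marker used to sort naive from memory cells, was at 17.9 CPM in KO naive replicate 3, between 5.49 and 6.30 CPM in the other KO naive libraries, and between 1.53 and 4.26 CPM in WT naive libraries. Cd44 was not left out when the 46 genes were chosen, so it may be part of the sum and is not a separate measure. Dapk1 in KO naive replicate 3 was at 18.5 CPM, inside the range of its group. From Xist and Y-linked transcripts this library came from a female and the other KO naive libraries from males. The same held for Het naive replicate 3, the highest of its group in the sum, Dapk1, Dapk2 and Gas7. In WT, the naive replicates 2 and 3 came from females, the lowest and the highest library of their group in Dapk2 and in Gas7. With sex as a covariate the KO against WT values in naive cells were 1.66 for Dapk1, 4.66 for Dapk2 and 3.50 for Gas7. What part the memory genes had in these levels was not tested. Without KO naive replicate 3 the KO against WT values in naive cells were 1.66 for Dapk1 and 4.05 for Dapk2.

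**Figure D4:**
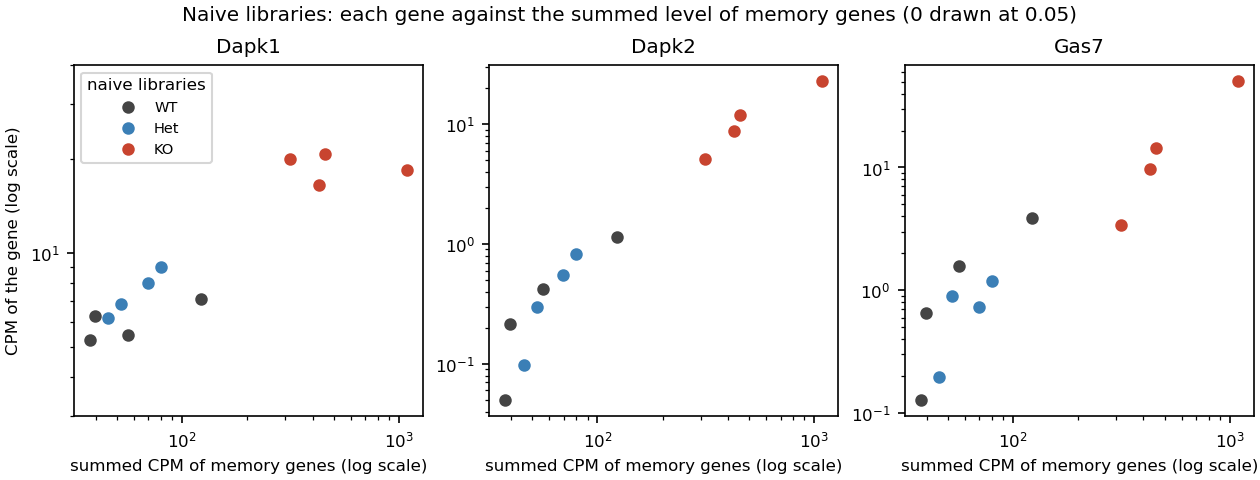
CPM of Dapk1, Dapk2 and Gas7 in the 12 naive libraries against the summed CPM of 46 memory genes, both on log scales, coloured by genotype, with 0 drawn at 0.05. Dapk2 and Gas7 are highest in the KO library with the highest sum (1090 CPM), and Dapk1 in that library lies within the other KO libraries.

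The same sum was between 37.9 and 40.2 CPM in WT, 38.6 and 54.3 CPM in Het and 147 and 190 CPM in KO thymus libraries. In memory cells it was between 908 and 1318 CPM in WT, 1091 and 1407 CPM in Het and 2028 and 2457 CPM in KO. The KO libraries were thus above the others in this sum in all 3 subsets, as they were in Dapk2, and its part in the Dapk2 and Gas7 levels was not tested. Markers of other cell types were examined too. Of 9 myeloid markers 7 had counts. Csf1r had the most, between 1 and 100 counts per library, and Lyz2 had at most 13. S100a8 and S100a9 were at 0 in every library, and Itgam had at most 1 count. The myeloid list summed to between 0.800 and 4.30 CPM in memory libraries of all genotypes, where Gas7 was at 59.0 CPM or more. In naive libraries the myeloid sum was highest in KO naive replicate 4, at 9.78 CPM, against 0.767 to 1.08 CPM in the other KO and 1.08 to 3.45 CPM in the WT naive libraries. The 3 erythroid markers summed to between 1.85 and 5.23 CPM in thymus and between 3.55 and 53.4 CPM in spleen libraries, with overlapping genotypes. The 5 NK cell markers summed to less than 1 CPM in every library, with Ncr1 at 0. The 7 B cell markers summed to 154 CPM in KO naive replicate 4 (9.31 CPM in the lowest KO naive library), to 63.0 CPM at most in WT naive and 97.2 CPM at most in WT memory cells. The 4 CD4 T cell markers, most of it from Zbtb7b, summed to between 13.5 and 24.9 CPM in KO memory and 5.17 and 6.21 CPM in WT memory libraries, and to 8.38 CPM in KO naive replicate 3 against at most 1.61 CPM in WT naive libraries. Their part in the members' levels was not tested.

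Levels were compared between the genes only per kilobase of merged exons, 9012 bp for Dapk1, 3512 bp for Dapk2, 2532 bp for Dapk3 and 11342 bp for Gas7. In WT thymus Dapk3 was highest at 2.99 ± 0.133 CPM per kb, followed by Dapk1 at 1.38 ± 0.274, Dapk2 at 0.219 ± 0.119 and Gas7 at 0.0157 ± 0.0271 (SD, n = 3). In WT naive cells the order was the same for the kinases, with Dapk3 at 3.50 ± 0.221, Dapk1 at 0.667 ± 0.0946 and Dapk2 at 0.126 ± 0.140 CPM per kb, and Gas7 was at 0.137 ± 0.146 (n = 4). In WT memory cells Gas7 at 6.39 ± 0.826 and Dapk2 at 5.33 ± 2.24 CPM per kb had higher means than Dapk3 at 3.41 ± 0.219 and Dapk1 at 0.104 ± 0.0367, and the Dapk2 libraries overlapped those of Gas7 and of Dapk3. In KO memory cells Dapk2 had the highest mean at 14.0 ± 1.46, then Gas7 at 11.1 ± 2.18, Dapk3 at 2.99 ± 0.268 and Dapk1 at 1.58 ± 0.359 CPM per kb. There too the Dapk2 libraries overlapped those of Gas7. Among the 3 kinases, Dapk3 thus had the highest mean CPM per kb in WT thymus and naive cells and Dapk2 in WT and KO memory cells. Which annotation was counted is not given, so how fully the reads of each gene were captured could not be checked.

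The genes whose pattern over the 9 group means of log2 CPM was most like that of each member were picked by Pearson correlation among 7816 genes. The 9 points share libraries and scaling, so the values are a description. For Dapk1 they were Plcb4, which encodes a phospholipase C, with r = 0.992, Mical3 with 0.983 and Sfmbt2 with 0.977. Plcb4 was at 13.2, 6.35 and 1.89 CPM in WT thymus, naive and memory cells and at 24.7, 18.5 and 13.1 CPM in KO. For Dapk2 they were Atf6, an unfolded protein response factor, with r = 0.987, Reck with 0.983 and the calcium-binding protein gene S100a6 with 0.982. For Gas7 they were Plek, the gene of pleckstrin, with r = 0.996, Pogk with 0.996 and Arhgap25 with 0.994. Plek stood at 139 ± 22.6, 143 ± 14.6 and 190 ± 22.6 CPM in WT, Het and KO memory cells (SD, n = 4 each). For Dapk3 they were Tvp23b with 0.972, Zfp275 with 0.942 and Eps8l1 with 0.915, over a narrow range of levels. Between the members themselves r was 0.914 for Dapk2 and Gas7, -0.215 for Dapk1 and Dapk2, and -0.489 for Dapk1 and Gas7.

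Genes related to the members were then counted in KO against WT libraries from 3 lists, of other calmodulin-dependent kinases, of regulators and substrates of the death-associated kinases, and of the F-BAR family without Gas7. These lists were drawn up with earlier results of these data known, so their calls and p-values serve as a description. Of 16 calmodulin-dependent kinase genes 10 were tested. None was higher and 2 were lower in thymus, 2 were higher and 2 lower in naive cells, and 3 were higher and 4 lower in memory cells, with median log2 fold changes of -0.11, 0.06 and 0.16 where all genes had 0.02, 0.00 and 0.01. Of all genes tested 11.9% were higher and 6.77% lower in thymus, 11.1% and 7.11% in naive cells, and 12.8% and 9.32% in memory cells. Camk2d, a subunit of calmodulin kinase II, fell in all 3 subsets, by 0.36 ± 0.10, 0.39 ± 0.09 and 0.64 ± 0.09 (edgeR adjusted p = 0.00599, 0.00109 and 1.8e-07). Stk17b, which encodes the kinase DRAK2, a relative of the death-associated kinases known to restrain T cell receptor signalling, fell by 0.41 ± 0.10 in naive cells and 0.62 ± 0.10 in memory cells, from a mean of 59.2 CPM in WT memory to 38.5 CPM in KO. Camk4, a calmodulin kinase abundant in thymocytes, fell by 0.44 ± 0.09 in thymus and 0.51 ± 0.09 in memory cells. In the other direction, Camk1 rose by 0.88 ± 0.32 in naive cells (edgeR adjusted p = 0.0468) and 1.73 ± 0.31 in memory cells (adjusted p = 3.73e-05), and Camk2b rose by 1.14 ± 0.25 in naive cells (adjusted p = 0.00109).

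Of 27 regulators and substrates 24 were tested. In thymus 3 were higher and none lower, in naive cells 4 were higher and 3 lower, and in memory cells 3 were higher and 4 lower. The medians were -0.02, -0.02 and 0.00, where all genes had 0.02, 0.00 and 0.01. Over all genes the shares were 11.9% higher and 6.77% lower in thymus, 11.1% and 7.11% in naive cells, and 12.8% and 9.32% in memory cells. The thymus count rests on single libraries, at 0 without WT thymus replicate 2 or 3, and at 1 without WT thymus replicate 1 or KO thymus replicate 2 or 4, and none of the 3 was called higher once libraries were centred on the mean log level. Calm2, a calmodulin gene, rose by 0.32 ± 0.11, 0.58 ± 0.10 and 0.69 ± 0.10 in thymus, naive and memory cells (edgeR adjusted p = 0.029, 2.48e-05 and 5.05e-07). Atf4, a stress response factor, rose by 0.26 ± 0.09 in thymus. In naive cells Ppp1r12a, the myosin phosphatase targeting subunit, rose by 0.42 ± 0.07 and the kinase gene Rps6ka1 by 0.25 ± 0.05. The kinase gene Rock2 fell by 0.30 ± 0.07 in naive cells and by 0.43 ± 0.07 in memory cells, where Myl12b, a myosin regulatory light chain, fell by 0.36 ± 0.08 and Mapk3, which encodes ERK1, rose by 0.51 ± 0.08.

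Of 22 F-BAR genes 17 were tested, and this list had the largest fold changes. In thymus 4 were higher and 2 lower, in naive cells 7 were higher and 1 lower, and in memory cells 5 were higher and 1 lower, with medians of -0.06, 0.14 and 0.01. All genes had medians of 0.02, 0.00 and 0.01. Their shares were 11.9% higher and 6.77% lower in thymus, 11.1% and 7.11% in naive cells, and 12.8% and 9.32% in memory cells. Fnbp1l, whose product bends membranes and promotes actin assembly, rose by 1.80 ± 0.26, 4.18 ± 0.36 and 4.70 ± 0.34 in thymus, naive and memory cells, from 0.275 ± 0.166 CPM in WT memory to 7.34 ± 0.618 CPM in KO memory (SD, n = 4 each, edgeR adjusted p = 1.9e-14). Srgap3, which encodes a GTPase-activating protein, rose by 3.03 ± 0.29, 2.33 ± 0.26 and 0.89 ± 0.22, and stood between 37.4 and 41.7 CPM on average in the 3 KO groups. The tyrosine kinase gene Fes rose by 2.64 ± 0.51 in naive and 3.55 ± 0.57 in memory cells. Pacsin2 rose by 0.81 ± 0.11 in thymus, whereas Pacsin1 fell in all 3 subsets, by 0.41 ± 0.09, 0.70 ± 0.09 and 1.31 ± 0.09. Like Gas7, Srgap3 had its smallest KO against WT value in memory cells, and like Dapk1, Fnbp1l had its largest there.

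**Figure D5:**
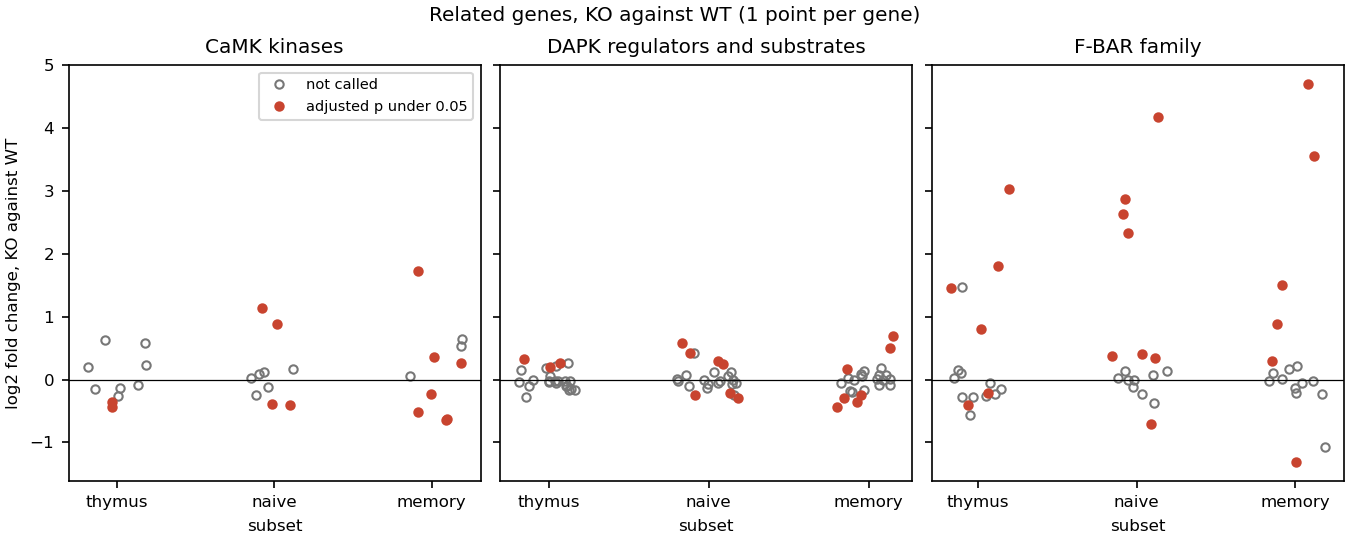
Log2 fold change of KO against WT for each tested gene of the 3 lists of related genes in each subset, filled where the edgeR adjusted p was under 0.05. Points are spread sideways only to separate them. The F-BAR list holds the highest values, up to 4.70 for Fnbp1l in memory cells, while the regulators and substrates of the kinases stay below 1 in size.

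The split into higher and lower genes depends on scaling. Centred on the mean log level, the split over all genes in KO against WT went from 1222 higher and 697 lower to 886 and 1342 in thymus, from 1147 and 732 to 886 and 1612 in naive cells, and from 1323 and 960 to 1019 and 1812 in memory cells. The calmodulin-dependent kinases then had 0 higher and 4 lower, 1 and 3, and 2 and 4 in thymus, naive and memory cells. The regulators and substrates had 0 and 3, 2 and 6, and 2 and 7, and the F-BAR genes 3 and 5, 5 and 2, and 4 and 4. Under that centring Dapk1 was at 0.69, 1.54 and 3.75, Dapk2 at 3.03, 4.41 and 1.30 and Gas7 at 3.88, 3.31 and 0.68 in KO against WT thymus, naive and memory cells, all still above 0.

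The tested genes nearest to the members on the chromosome showed smaller differences than Dapk1, Dapk2 and Gas7. By Dapk2, Herc1, which begins 78.2 kb after it, fell by 0.23 ± 0.06, 0.28 ± 0.05 and 0.22 ± 0.05 in KO thymus, naive and memory cells (edgeR adjusted p = 0.0034, 9.46e-05 and 0.00145), and Ciao2a, 19.3 kb before it, was at 0.05, 0.06 and 0.06 and was not called. By Dapk1, Tut7, 779 kb before it, fell by 0.26 ± 0.08 in thymus (edgeR adjusted p = 0.0136) and was at -0.04 and 0.04 in naive and memory cells, and Zfp808 on the other side was not called. By Gas7, neither Sco1, 388 kb before it, nor Stx8, 277 kb after it, was called. By Dapk3, Eef2, the gene of a translation elongation factor that ends 0.507 kb before it, was at -0.10 ± 0.07 in thymus and fell by 0.30 ± 0.07 and 0.37 ± 0.07 in naive and memory cells. Matk, a kinase gene 59.7 kb after Dapk3, rose by 0.37 ± 0.14 in thymus (edgeR adjusted p = 0.0492), was at 0.32 ± 0.13 in naive cells (adjusted p = 0.0817) and fell by 0.65 ± 0.15 in memory cells (adjusted p = 0.00114).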

How the data were processed

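RNA was sequenced from CD8 T cell subsets sorted by flow cytometry. Per the labels' protocols, RNA came from Trizol extraction, libraries were stranded mRNA libraries, and reads were single reads. The authors deposited 1 table of raw counts, with Ensembl genes as rows and libraries as columns. Tools named in the submitters' processing notes are HTSeq 0.9.1, TopHat2 2.1.0 and TopHat, on GRCm38 and mm10. Which annotation was counted, and with which strand setting, is not given in the sources used here. GENCODE M21 named 52403 of 52636 identifiers and gave positions. Libraries were grouped by genotype and subset from their labels.

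The filterByExpr rule over 9 groups kept 10296 genes, all 4 members among them. Counts were scaled by TMM (factors 0.927 to 1.07) and fitted over all 35 libraries with edgeR 4.0.16 in R 4.3.3 (quasi-likelihood, robust, 26 residual degrees of freedom). The p-values are two-sided, with Benjamini-Hochberg adjustment over the 10296 genes, and an adjusted value under 0.05 is a call. The SE of a log2 fold change is its size divided by the root of F, and CPM is given ± SD. A count of 0 was given the upper limit of 3 counts. The scripts were tested on simulated data. Promoter sequences are RefSeq's, matched by symbol for 3 of the 4 members.

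The members and the gene lists were chosen with earlier results of these data known. Named genes were the members, Dot1l, for each member the 3 genes with the highest correlation of group means (mean log2 CPM of at least 1, no predicted models or immune receptor segments), up to 4 called genes with the lowest adjusted p per list and subset, and the nearest tested gene on each side of a member. The result of 1 gene that this rule names is not reported here. Atp8a2, the marker genes and the values of single naive libraries were named after their values were seen. No 2 libraries of a group looked like 1 library counted again: over 51 pairs the lowest chi-square per gene was 3.98. Equally numbered libraries deviated together in every pair (correlation over 0.1) for memory against naive in WT (0.206 to 0.310) and KO against Het naive (0.144 to 0.262), which the labels neither state nor exclude. Some other comparisons fell short of that cut, yet all 4 libraries correlated best with their own number. These were memory against naive in KO (0.099 to 0.322), naive against thymus in KO (0.054 to 0.262) and KO against WT naive (0.082 to 0.287). The main fit left replicate number out. Alternatives were RLE scaling, mean log centring, no filter, keeping only genes at 1 CPM or more in 4 libraries, DESeq2 1.42.0, non-robust estimates, the replicate block, sex as a covariate, only the libraries compared, and each library left out in turn.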

Additional observations from a re-analysis of the deposited data

Results flagged for a closer look

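Dapk3 in KO naive replicate 2 stood at 9.75 CPM, apart from the other 3 KO naive libraries at 7.20 to 7.60 CPM. Its gap to the nearest of them was 0.845 of the range of the group, above the 95% critical value of Dixon's ratio for 4 samples. Of 32 groups of 4 libraries examined over the 4 genes this was the only one to pass, and chance alone passes about 5% of groups.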

How the results depend on the processing

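Of 1263 recomputed values over 79 results, 1225 were counted as unchanged, and of 1000 values for the 4 genes 983 were. A tested value counted as unchanged if it kept its direction and its side of the threshold. A member's untested value in a comparison with KO libraries did so if it moved by less than the pooled SD of log2 levels within the groups, whatever its sign. Counts of genes had to stay within 1.5 times. The number of genes called in Het against WT naive cells was 1 with no filter on low counts. In Het against WT memory cells it was 2 with RLE scaling, 2 with mean log centring, 3 with no filter, 0 with estimates that were not robust, 2 with sex as a covariate and 2 with DESeq2. With the replicate block it was 3. The block changed no call of a member, and the other numbers of genes called stayed within 1.5 times. Memory against naive in WT, for instance, called 1697 genes with the block and 1551 without. Calls of list genes, of neighbouring genes and of the interaction term were not recomputed with the block. Gas7 from thymus to naive cells in WT was called at 3.88 (adjusted p = 0.0445) with edgeR estimates that were not robust and at 3.54 with DESeq2 (adjusted p = 0.00311), and Dapk2 in Het at -1.35 with DESeq2 (adjusted p = 0.041). With mean log centring Dapk3 in KO against WT memory cells moved to -0.31 and the number of calmodulin-dependent kinases called in thymus to 4. With no filter the regulators and substrates called in thymus numbered 1. The cause was not tested for any of these. Leaving out 1 library at a time gave 0 to 2 genes called in Het against WT thymus, 0 to 1 in memory cells and 0 to 4 regulators and substrates in KO against WT thymus. In Het against WT it gave Dapk3 at -0.06 to 0.01 in thymus, Dapk2 at -0.67 to 0.88 in naive and -0.11 to 0.37 in memory cells, Dapk1 at 0.97 to 1.60 in memory cells, Dapk2 at 0.14 to 1.00 and Gas7 at 0.49 to 4.75 in thymus, and Gas7 at -1.66 to -0.23 in naive cells. It gave Dapk3 from naive to memory cells at -0.07 to 0.00 in WT and 0.00 to 0.16 in Het, and, in KO libraries, Dapk2 at 2.58 to 3.44 in thymus and 4.05 to 5.66 in naive cells against WT, and Gas7 in thymus at 3.12 to 7.38 against WT and 1.95 to 3.07 against Het. Depth limits Dapk2 and Gas7 in WT and Het thymus and naive cells, where single libraries held 0 to 41 counts.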
